A study of Oryza sativa with 9 samples.

Results

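Roots of rice libraries labelled dgk1, a line whose genotype label names a knockout of diacylglycerol kinase 1, were compared with roots of the wild type. Both lines are in the cultivar Dongjin, and the roots came from soil-grown plants of 7 days, kept in a cycle of 10 h light and 14 h dark. Each group held 3 libraries, called biological repetitions by the submitters. How many plants went into a library, and how many independent events lie behind the line, which the design text calls dgk1-1, the sources used here do not give. The other line of the series, OE2, labelled as an overexpressor of DGK1, entered the statistical fit only to help estimate the spread between libraries. The comparison covers every gene model listed at 1 FPKM (fragments scaled by model length and library depth) or more in at least 3 of the 6 libraries. This held for 20872 of 105692 listed models: 13359 annotated genes, 5362 models that carry only a number (written below as "model" and that number) and 2151 noncoding models.

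Diacylglycerol kinases phosphorylate diacylglycerol, a membrane lipid that also acts as a messenger, and so produce phosphatidic acid. Phosphatidic acid is made by phospholipase D as well and is turned back to diacylglycerol by lipid phosphate phosphatases. In plant roots both lipids are known as precursors of membrane lipids and as signals that bind proteins of growth and stress responses.

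The labelled gene was checked before any other. DGK1, OS04G0634700, was listed at 0 FPKM in all 6 libraries, and the fragments at this place were listed under model 25546, which has the same span (chromosome 4, 32286661 to 32291433, plus strand) and the domains of a diacylglycerol kinase. Model 25546 had 7.24, 5.60 and 9.16 FPKM in libraries labelled dgk1, against 0.896, 0.738 and 0.487 FPKM in WT. All 3 libraries labelled dgk1 lay above all 3 of WT, in a direction that goes against the label (log2 fold change 2.27 ± 0.18 SE, limma adjusted p = 0.000581). Values per gene model cannot show whether these fragments form a complete transcript, so the groups are named only as labelled in what follows.

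The libraries labelled dgk1 held 12346054, 10536887 and 12000414 fragments, and those of WT 8908397, 10574056 and 12459460. WT was the more variable group, with a median SD of 0.161 among the libraries labelled dgk1 and 0.216 in WT on the log2 scale, over models of mean 5 FPKM or more. WT replicate 1 was also the shallowest library and had the highest levels of several cell wall families, which is given beside those families. Among marker genes of living root tissue, cortical cell-delineating proteins summed to 788, 754 and 850 FPKM in the libraries labelled dgk1 and to 955, 608 and 816 FPKM in WT, and aquaporins to 3702, 3198 and 3131 FPKM against 2960, 3315 and 3226 FPKM, so that the groups overlapped in both. Class III peroxidases summed to 6307, 6022 and 6198 FPKM against 7942, 7214 and 6307 FPKM, where the groups met at their edges. The 3 nicotianamine synthases did not overlap, with sums of 328, 212 and 343 FPKM against 121, 106 and 85.0 FPKM. In whole roots, a smaller share of a cell type and less RNA per cell cannot be told apart. No source used here states whether fragments were counted by strand. Overlapping models, such as the pairs named below, may share fragments, and so may near-identical members of one family.

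The 2 groups differed at few genes. By limma on log2(FPKM + 1), 166 of the 20872 models (0.795%) passed an adjusted p of 0.05, of which 129 (0.618%) were higher and 37 (0.177%) lower in the libraries labelled dgk1. Annotated genes supplied 73 of these, numbered models 73 and noncoding models 20. A described function was attached to 35 of the 166, of which 23 were higher and 12 lower. The groups did not overlap at any of the 166, and 140 differed by at least 2-fold. The smallest called change was 0.60 on the log2 scale, so the small shifts described below are shifts of groups of genes, of which few or no members passed the test alone.

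Many of the called models were near absence in one group. Of the 129 that rose, 83 had a WT mean under 1 FPKM and 36 were listed at 0 in all WT libraries. Of the 37 that fell, 16 had a mean under 1 FPKM in the libraries labelled dgk1 and 5 were listed at 0 there. Depth was thin for some: 16 called models, 15 of them noncoding, had under 20 fragments over all 6 libraries, while the median called model had 387. Among the 7778 models with a mean of 10 FPKM or more, 47 were called, and 18 of these differed by less than 2-fold.

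**Figure D1:**
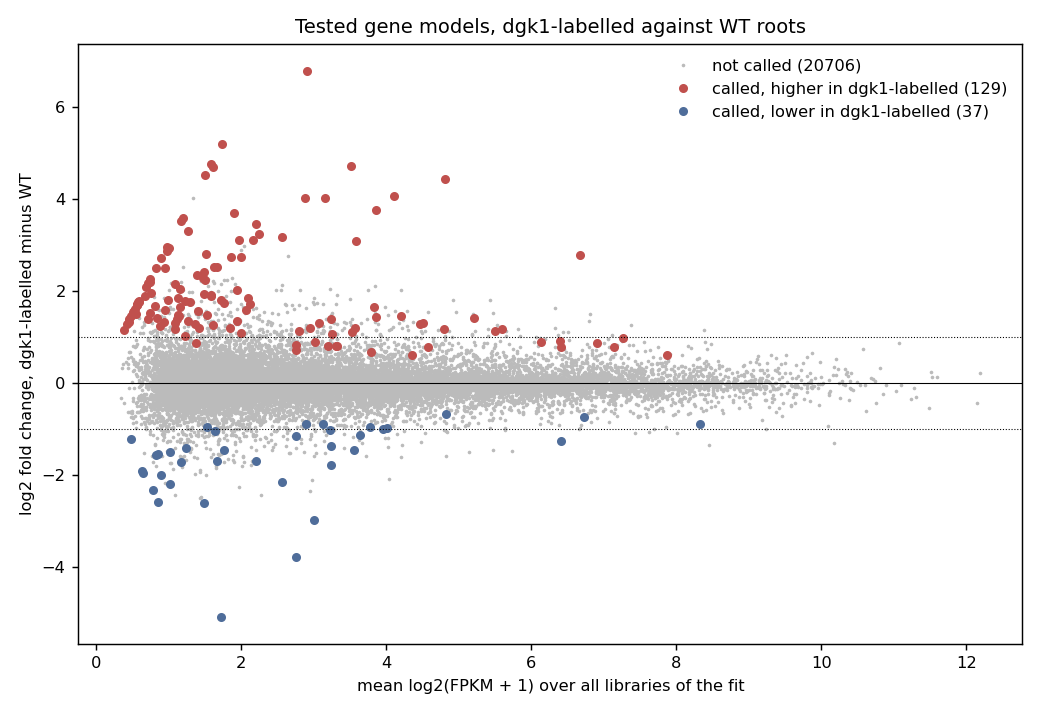
Each point is 1 of the 20872 tested gene models, with the mean log2(FPKM + 1) over the 9 libraries of the fit on the horizontal axis and the log2 fold change, libraries labelled dgk1 minus WT, on the vertical axis. The 129 models called higher and the 37 called lower are coloured, and dotted lines mark a 2-fold difference, inside which 26 of them lie.

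At an unadjusted p under 0.05, 2404 models (11.5%) differed, 1308 (6.27%) above WT and 1096 (5.25%) below it, and 1904 of the 2404 differed by less than 2-fold. All 3 libraries labelled dgk1 lay above all 3 of WT at 1798 models (8.61%) and below them at 1524 (7.3%). The median log2 fold change was −0.01, and the middle 50% of models lay between −0.17 and 0.18. These values are the background against which the gene families below are read.

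Genes of lipid signalling other than the locus of DGK1 differed little. Of 17 models described as diacylglycerol kinases 5 were tested, and model 25546 was the member called. Model 11163, the most abundant, had 33.4, 31.8 and 36.2 FPKM in the libraries labelled dgk1 and 31.3, 33.9 and 23.5 FPKM in WT, so the groups overlapped (limma adjusted p = 0.671). OS01G0783200 and models 15899 and 34608 stayed between 0.711 and 4.19 FPKM in all 6 libraries, with adjusted p of 0.706, 0.622 and 0.895.

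Among 18 phospholipases and lipid phosphate phosphatases none was called. At an unadjusted p under 0.05, 3 (16.7%) lay above WT, beside 6.27% of all models, and none below. Phospholipase D alpha 1 (OS01G0172400), the abundant form of the enzyme that makes phosphatidic acid directly from membrane lipids, had 212, 221 and 199 FPKM in the libraries labelled dgk1 against 176, 199 and 166 FPKM in WT. Its groups were separate by less than 1 FPKM (log2 fold change 0.23 ± 0.10 SE, limma adjusted p = 0.419). Model 12127, with the catalytic domain of a phosphoinositide-specific phospholipase C, which releases diacylglycerol, had 8.71, 6.85 and 7.56 FPKM against 4.78, 5.28 and 2.94 FPKM in WT. This was the clearest separation of the 3 (log2 fold change 0.73 ± 0.19 SE, adjusted p = 0.18). The lipid phosphate phosphatase OS03G0288700, of the family that returns phosphatidic acid to diacylglycerol, had 132, 118 and 147 FPKM against 116, 113 and 87.6 FPKM in WT.

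Of 30 genes of fatty acid and wax synthesis, 5 (16.7%) lay below WT without overlap and none above, beside 7.3% and 8.61% of all models. The 5 include model 22830, which overlaps momilactone A synthase and is therefore no separate measurement. The median log2 fold change was −0.13, and −0.07 without WT replicate 1. The acyl carrier protein OS05G0377000, which holds the growing fatty acid, had 54.9, 50.5 and 48.8 FPKM in the libraries labelled dgk1 against 64.1, 57.3 and 59.8 FPKM in WT. The ketoacyl-CoA synthase OS03G0245700, of the enzymes that lengthen fatty acids for wax and suberin, had 7.05, 11.4 and 8.36 FPKM against 16, 13.8 and 12.1 FPKM. No member passed the test.

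Genes called lower with a described role included kinases and genes of defence chemistry and the cell wall. The deepest fall was that of model 5834, a protein kinase domain model on chromosome 10 with 0.022, 0 and 0 FPKM in the libraries labelled dgk1 against 16.9, 11.5 and 11.1 FPKM in WT. The serine/threonine protein kinase OS04G0103700 had 8.78, 6.49 and 6.73 FPKM against 26.9, 19.6 and 19.9 FPKM in WT (log2 fold change −1.47 ± 0.17 SE, limma adjusted p = 0.00647). No library labelled dgk1 came near the WT range at either kinase.

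Less abundant models fell too. Model 25821, with the domain of a methyltransferase family that acts on small plant carboxylic acids, had 0.229, 0.865 and 1.30 FPKM in the libraries labelled dgk1 against 4.47, 3.68 and 3.32 FPKM in WT (limma adjusted p = 0.0289). Model 31190, a plant thionin, a family of small antimicrobial peptides, was listed at 0, 0.253 and 0 FPKM against 1.44, 1.32 and 1.81 FPKM (adjusted p = 0.0246). At both, the highest library labelled dgk1 stayed under the lowest of WT. Both calls were lost in a fit of the 6 libraries alone (limma adjusted p of 0.0981 for model 25821 and 0.0815 for model 31190).

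Among abundant genes, the cucumisin-like serine protease OS03G0605300, of the subtilase family of secreted proteases, had 85.6, 74.2 and 73.3 FPKM in the libraries labelled dgk1 against 128, 132 and 131 FPKM in WT (chromosome 3, 22703015 to 22705531). Its WT values were nearly level and all libraries labelled dgk1 lay well below them (log2 fold change −0.74 ± 0.10 SE, limma adjusted p = 0.0139). The cinnamyl alcohol dehydrogenase CAD8A (OS09G0399800), of a family that includes the last enzyme of lignin monomer synthesis, had 259, 212 and 257 FPKM against 502, 476 and 382 FPKM. This was a fall by 0.90 ± 0.13 SE on the log2 scale (adjusted p = 0.0178), at a gene that overlaps the numbered model 39315. Expansin-like A3 (OS07G0475400), of the expansin superfamily of wall proteins, had 25.5, 22.2 and 25 FPKM against 41.7, 38 and 37.9 FPKM, and was called with a log2 fold change of −0.67 ± 0.11 SE (adjusted p = 0.0361).

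Genes called higher included enzymes of the wall and apoplast. The xyloglucan endotransglucosylase OS06G0697000, which cuts and rejoins the xyloglucan chains that tether cellulose, had 72.5, 56.3 and 63.5 FPKM in the libraries labelled dgk1 against 33.8, 30.1 and 21.2 FPKM in WT. The groups were far apart (log2 fold change 1.17 ± 0.18 SE, limma adjusted p = 0.0244). The class III peroxidase OS05G0162000, a secreted enzyme that uses hydrogen peroxide, had 91.1, 133 and 114 FPKM against 64.8, 59.1 and 53.3 FPKM. Its lowest library labelled dgk1 was clear of the highest of WT (log2 fold change 0.91 ± 0.15 SE, adjusted p = 0.0405). Laccase-8 (OS01G0850800), a copper oxidase of the family that couples lignin monomers, had 5.09, 6.75 and 5.42 FPKM against 2, 1.08 and 0.818 FPKM (log2 fold change 1.58, adjusted p = 0.0178).

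Other risers had roles in hormone activation, metabolism and protease control. The cytokinin-activating phosphoribohydrolase LOGL5 (OS03G0857900), of the enzymes that free the active base of the hormone, had 151, 168 and 184 FPKM in the libraries labelled dgk1 against 111, 81.2 and 84.3 FPKM in WT. The cysteine proteinase inhibitor OS05G0494200, a cystatin that blocks papain-like proteases, had 10.9, 11 and 12.7 FPKM against 5.84, 5.78 and 7.04 FPKM (log2 fold change 0.80, limma adjusted p = 0.0392). At both genes every library labelled dgk1 lay above every WT library. Neither call held in a fit of the 6 libraries alone (limma adjusted p of 0.104 for LOGL5 and 0.0949 for OS05G0494200).

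Several called enzymes were numbered models. Model 23340, with an acireductone dioxygenase domain, an enzyme of the cycle that recovers methionine, had 4.07, 4.74 and 4.15 FPKM in the libraries labelled dgk1 against 1.65, 1.6 and 1.33 FPKM in WT (log2 fold change 1.08 ± 0.15 SE, limma adjusted p = 0.0142). Model 23324, an aldo/keto reductase, had 9.66, 10.2 and 12.3 FPKM against 4.91, 5.54 and 6.27 FPKM (adjusted p = 0.0372). Model 34836, which joins an amino acid kinase with an acetyltransferase domain, had 27.1, 26.5 and 32.8 FPKM against 18.3, 15.9 and 15.1 FPKM (adjusted p = 0.0396). It shares its place with the annotated gene OS07G0585500. In all 3 numbered models the groups did not overlap. With the 6 libraries alone model 23340 kept its call (limma adjusted p = 0.0384), while model 23324 (0.109) and model 34836 (0.102) lost it.

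Model 19949, a thioredoxin-like protein of the proteins that reduce disulfides, had 10.1, 10.7 and 10.7 FPKM in the libraries labelled dgk1 against 5.32, 6.39 and 5.11 FPKM in WT and lay at the threshold (limma adjusted p = 0.0499). Model 24764, an amino acid permease that overlaps model 24763, had 3.02, 1.84 and 2.03 FPKM against 0.423, 0.174 and 0.176 FPKM (adjusted p = 0.0171). Model 10267, with the domain of the RNase P subunit p30, which takes part in trimming transfer RNA precursors, had 1.51, 1.64 and 1.57 FPKM and was near absent from WT, at 0.0161, 0 and 0.0201 FPKM (log2 fold change 1.35 ± 0.13 SE, adjusted p = 0.00145).

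Regulators were few among the calls. The Dof factor OS02G0252400 had 7.90, 8.43 and 10.5 FPKM in the libraries labelled dgk1, whereas each WT library listed it at 0. Model 36678, with the FAR1 domain known from Arabidopsis regulators of light responses, rose, with 23.3, 27.2 and 20.3 FPKM in libraries labelled dgk1 against 7.37, 9.96 and 7.04 FPKM in WT. Model 36686, with a CCT motif found in flowering and clock regulators, fell, at 6.10, 4.75 and 4.08 FPKM against 9.64, 11.2 and 9.12 FPKM. Of 23 light and clock regulators listed together, these last 2 models were the called ones.

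**Figure D2:**
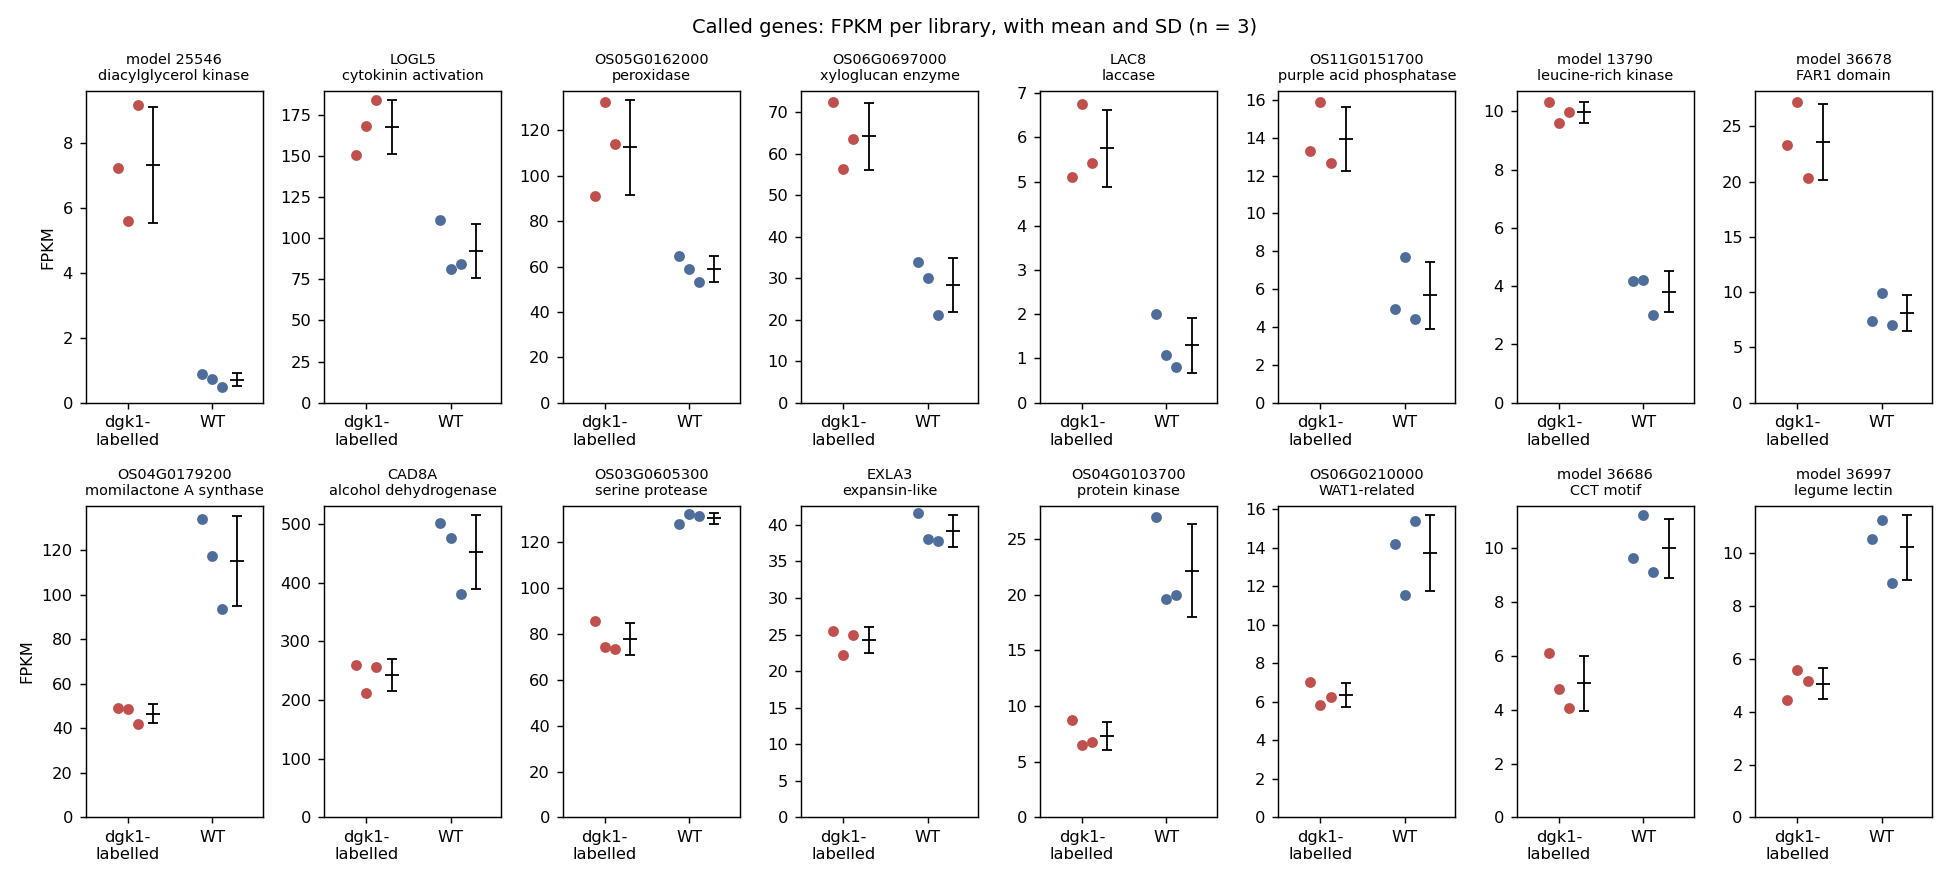
FPKM of 16 called genes in each library, 1 panel a gene with its own axis starting at 0, with the 3 libraries labelled dgk1 left of the 3 of WT and a black bar for the mean with its SD. The groups do not overlap in any panel, with genes higher in the libraries labelled dgk1 in the upper row and lower ones in the lower row.

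Of the 33 called models named by the rule given with the methods, 9 kept their call under every alternative that gave them a value. They were model 25546, OS04G0103700, the Dof factor OS02G0252400 and models 5834, 31587, 32754, 33318, 33398 and 36605. Without each single library 11 kept it, the other two being models 22730 and 32420. The abundant enzymes were less firm. The protease OS03G0605300 lost its call without WT replicate 2 or 3 or without dgk1 replicate 2 or 3 (limma adjusted p of 0.0533 to 0.0701), and CAD8A (OS09G0399800) without any library except WT replicate 3 (0.0534 to 0.0814). The transglucosylase OS06G0697000 lost it without WT replicate 2 or any of the libraries labelled dgk1 (0.0586 to 0.103), and LOGL5 (OS03G0857900) without any library except WT replicate 1 (0.0674 to 0.139). The peroxidase OS05G0162000 lost it without any library except dgk1 replicate 1 (0.0641 to 0.155), and expansin-like A3 (OS07G0475400) without any 1 of the 6 (0.0911 to 0.131). In a fit of the 6 libraries alone, 15 of the 33 lost their call (0.0557 to 0.134), among them CAD8A, the transglucosylase, LOGL5, the peroxidase, expansin-like A3, the lectin-domain model 36997 and models 19949, 22730, 24764 and 36686. In each case the direction stayed the same.

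The gene families were read through 72 lists made from the descriptions in the files, of which 71 had at least 5 tested members. They held 2573 tested models, of which 17 were called higher and 6 lower, and 55 lists had no called member. For 9 lists the mean log2 level of every library labelled dgk1 lay above every WT library, for 8 it lay below and for 54 the groups overlapped.

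**Figure D3:**
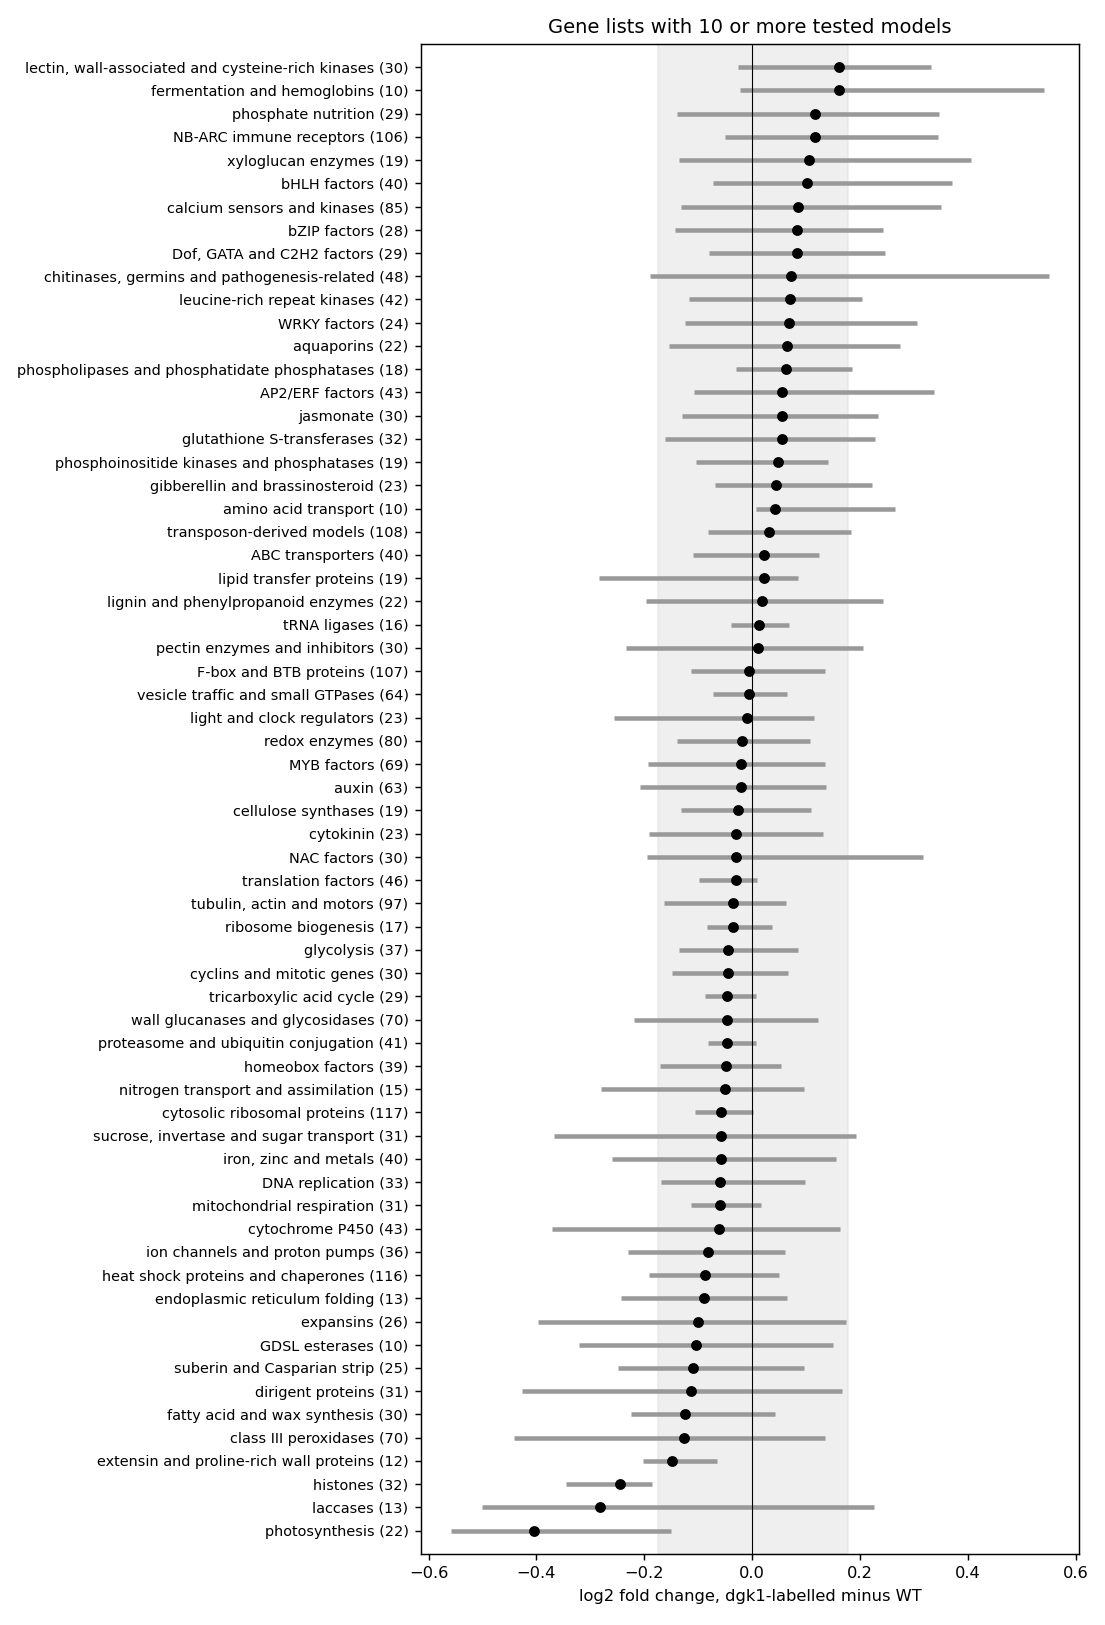
Median log2 fold change, libraries labelled dgk1 over WT, of each list with at least 10 tested models, with a line for the middle 50% of its members. The grey band is the middle 50% of all tested models, −0.17 to 0.18, and the medians of photosynthesis and histone genes and of laccases lie outside it on the low side.

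Diterpenoid phytoalexin genes had the lowest median of the lists, at −0.75, with 4 of 5 tested members below WT without overlap (80%, beside 7.3% of all models). These genes make momilactones, oryzalexins and related defence compounds, and momilactones are known to be released from rice roots. Momilactone A synthase (OS04G0179200, chromosome 4, 5385722 to 5387215, minus strand) fell, with 49.1, 48.9 and 41.8 FPKM in libraries labelled dgk1 against 134, 117 and 93.7 FPKM in WT (log2 fold change −1.27 ± 0.21 SE, limma adjusted p = 0.0375). Its call was lost without any 1 of the 6 libraries, with an adjusted p of 0.0542 without WT replicate 3 and up to 0.15 without dgk1 replicate 3.

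The neighbouring gene OS04G0178400, CYP99A3, a cytochrome P450 of the same pathway, had 9.45, 11.4 and 12.9 FPKM in the libraries labelled dgk1 against 20.8, 21.6 and 16.5 FPKM in WT. The oryzalexin D synthase OS02G0569400, CYP76M8, had 4.69, 6.46 and 3.08 FPKM against 16.2, 16.6 and 15 FPKM (log2 fold change −1.60 ± 0.30 SE). Its groups were far apart, yet it missed the threshold when the spread was shared over 9 libraries (limma adjusted p = 0.0657) and passed it with the 6 libraries alone (adjusted p = 0.0491). Model 9185, with a terpene synthase domain, had 5.80, 6.72 and 6.16 FPKM against 12.3, 11.7 and 8.24 FPKM.

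Near OS02G0569400 on chromosome 2, the cassadiene synthase KSL7 (OS02G0570400), which forms the backbone of phytocassanes, had 0.661, 1.04 and 0.527 FPKM in the libraries labelled dgk1 against 3.45, 5.13 and 3.65 FPKM in WT. It was chosen after its values were seen and lies outside the list (log2 fold change −1.54 ± 0.30 SE, limma adjusted p = 0.0729, and 0.0355 with the 6 libraries alone). The fifth member, the kaurene synthase-like KSL3 (OS04G0611700), had 1.12, 1.75 and 1.85 FPKM against 1.03, 1.36 and 2.78 FPKM, so its groups overlapped. The median of the list stayed between −1.01 and −0.64 over all alternatives.

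Nearly all histone genes lay a little below WT. Of 32 tested members, 31 had a log2 fold change below 0, beside 51.7% of all models, with a median of −0.25. None was called and 9 (28.1%) lay below WT at an unadjusted p under 0.05, beside 5.25% of all models. Without overlap, 7 (21.9%) lay below WT and 1 (3.1%) above, beside 7.3% and 8.61% of all models. Histones package DNA, and the genes of the core histones are known for their peak of expression during DNA replication. The mean log2 level of the list was 6.30, 6.32 and 6.30 in the libraries labelled dgk1 against 6.8, 6.40 and 6.54 in WT. Their summed level was 5180, 5420 and 5115 FPKM against 7257, 5945 and 5840 FPKM.

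Histone H4 gene OS05G0466600 had 268, 274 and 265 FPKM in the libraries labelled dgk1 against 452, 364 and 313 FPKM in WT (log2 fold change −0.47 ± 0.15 SE, limma adjusted p = 0.276). Another H4 gene, OS10G0539500, had 478, 475 and 394 FPKM against 600, 544 and 486 FPKM, and the H2A gene OS07G0545400 had 130, 130 and 109 FPKM against 166, 162 and 147 FPKM. The groups were separate at all 3, with WT replicate 1 the highest library each time. Without WT replicate 1 the list's median was −0.15 and 4 members had an unadjusted p under 0.05.

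Genes of DNA replication itself had a median nearer to 0. Of 33 tested, 1 lay above WT and none below at an unadjusted p under 0.05, with a median of −0.06. Of 30 cyclins and mitotic genes, 1 lay on either side. Only 2 models were described as B-type cyclins, and both were listed at 0 in all 6 libraries. Minichromosome maintenance proteins, another marker of dividing cells, summed to 29.8, 29.6 and 38.8 FPKM in the libraries labelled dgk1. In WT their sums were 51.1, 31.0 and 41.6 FPKM, so the groups overlapped. Tubulin, actin and motor genes, 97 in number, had a median of −0.03.

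**Figure D4:**
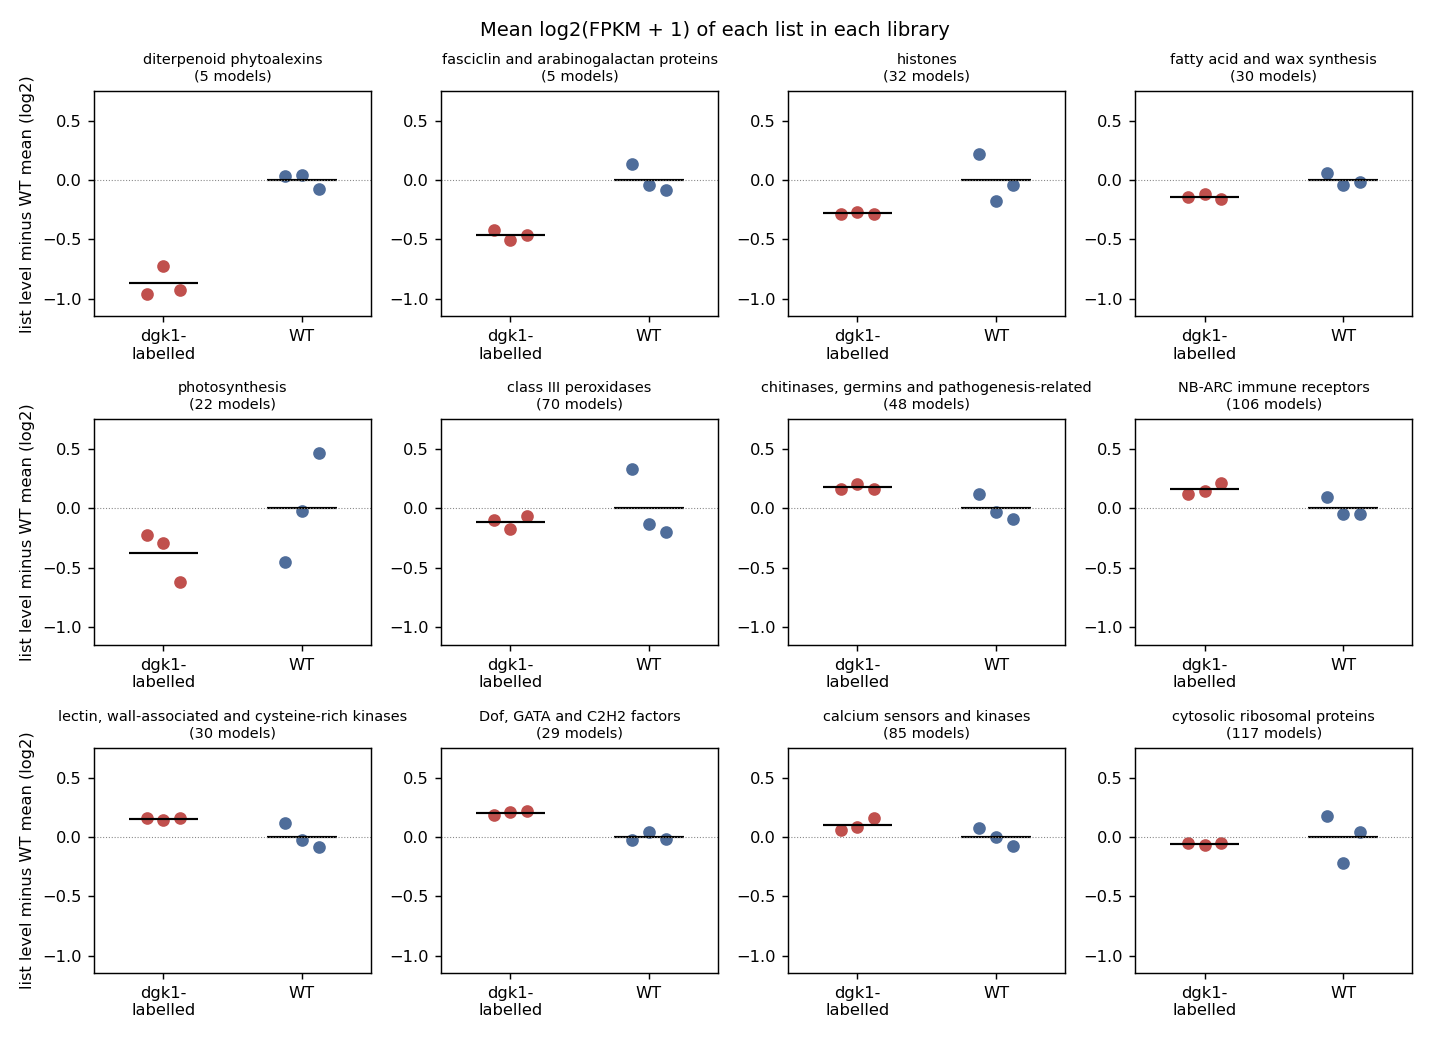
Mean log2(FPKM + 1) of 12 gene lists in each library, given as the difference from the WT mean, with the 3 libraries labelled dgk1 left of the 3 of WT and a black line for the mean of each group. Diterpenoid, fasciclin, histone and fatty acid lists stand below WT and NB-ARC and chitinase lists above it in every library labelled dgk1, while the peroxidase and ribosomal protein lists overlap.

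Photosynthesis genes, which mark green tissue, had a median of −0.40, and 20 of 22 lay below 0. No member was called and 5 (22.7%) lay below WT without overlap, beside 7.3% of all models. Single libraries moved the median, to −0.14 without WT replicate 3, −0.67 without WT replicate 1 and −0.26 without dgk1 replicate 3. CAB1R (OS09G0346500), a chlorophyll-binding antenna protein, had 76, 87.6 and 66.2 FPKM in the libraries labelled dgk1 against 102, 130 and 123 FPKM in WT. The mean log2 level of the list overlapped between groups, at 2.62, 2.55 and 2.22 in the libraries labelled dgk1 and 2.39, 2.82 and 3.31 in WT. Summed over all chlorophyll-binding proteins, the level was 152, 156 and 118 FPKM against 179, 207 and 251 FPKM. The 1 model described as an oxygen-evolving enhancer was listed at 0 in all 6 libraries. Photosystem proteins summed to 50.2, 59.7 and 45.4 FPKM against 49.9, 79.6 and 83.9 FPKM, so the groups overlapped. They also overlapped in the summed levels of ribulose bisphosphate carboxylase, plastocyanin and phosphoribulokinase. The share of green tissue in the samples was not tested.

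Protein folding genes lay slightly below WT as lists. The mean log2 level of heat shock proteins and chaperones was 3.793, 3.748 and 3.787 in the libraries labelled dgk1. In WT it was 3.864, 3.888 and 3.808, so the groups did not overlap. A log2 fold change below 0 was found for 75 of the 116, beside 51.7% of all models. Of 116 heat shock proteins and chaperones, 8 (6.9%) lay below WT at an unadjusted p under 0.05, near the 5.25% of all models, and 1 lay above. For 10 (8.62%) the groups did not overlap on the low side, near the 7.3% of all models. The median was −0.09 and moved to −0.03 without WT replicate 2. The endoplasmic reticulum, where secreted proteins mature, had 13 tested folding genes. At an unadjusted p under 0.05, 3 (23.1%) lay below WT, beside 5.25% of all models, and none above. Without overlap, 3 (23.1%) lay below WT, beside 7.3% of all models, and none above. Over the whole list, 7 members had a log2 fold change below 0 and 6 above. Its mean log2 level was 4.711, 4.641 and 4.685 in the libraries labelled dgk1 against 4.871, 4.723 and 4.856 in WT. The chaperone BIP1 (OS02G0115900) had 54.7, 36.2 and 54.1 FPKM in the libraries labelled dgk1 against 86.7, 53.5 and 95.7 FPKM in WT, and the lectin chaperone calnexin (OS04G0402100) had 239, 194 and 237 FPKM against 330, 235 and 351 FPKM. In both, WT replicate 2 lay within the range of the libraries labelled dgk1, while the other two WT libraries lay above it. The groups did not overlap at the protein disulfide isomerase-like PDIL2-2 (OS01G0339900). It had 16.45, 13 and 14.74 FPKM in the libraries labelled dgk1 against 23.95, 20.54 and 18.59 FPKM in WT (limma adjusted p = 0.29).

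Cell wall proteins lay on both sides of WT. All 5 fasciclin and arabinogalactan proteins, glycoproteins of the cell surface, lay below 0. Of these, 3 (60%) were below WT without overlap, beside 7.3% of all models. The arabinogalactan protein OS01G0668100 had 82.7, 82.1 and 72.4 FPKM in the libraries labelled dgk1 against 112, 108 and 111 FPKM in WT (log2 fold change −0.48 ± 0.12 SE, limma adjusted p = 0.176). Of 26 expansins, which loosen walls, 5 (19.2%) lay below WT without overlap and none above. The mean log2 level of the list was highest in WT replicate 1, at 4.17, against 3.66 in each of the other 2 WT libraries, and the median of −0.10 turned to 0.08 without it. Expansin-like B1 (OS07G0496250) had 9.13, 12.3 and 7.83 FPKM against 15.1, 22.2 and 21.4 FPKM.

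Xyloglucan enzymes lay on both sides of WT. Of 19, 4 (21.1%) lay above WT and 2 (10.5%) below, in both cases without overlap and at an unadjusted p under 0.05. Of all models, 8.61% lay above and 7.3% below without overlap. Besides the called OS06G0697000, the related OS04G0604300 had 33.7, 23.6 and 33.2 FPKM in the libraries labelled dgk1 against 19.4, 11.8 and 9.45 FPKM in WT (log2 fold change 1.14 ± 0.28 SE, limma adjusted p = 0.159). OS06G0696400, of the same family and also on chromosome 6, had 25.2, 20.8 and 28.3 FPKM against 14.2, 18.5 and 8.25 FPKM. On the low side, OS10G0577500 had 70.6, 60.7 and 73.5 FPKM against 109, 80.0 and 101 FPKM. Of the 19 cellulose synthases and related proteins, the median of −0.03 likewise turned to 0.12 without WT replicate 1. The cellulose synthase-like OS06G0111800, CSLD2, of a family that makes wall polysaccharides, had 55.3, 52.4 and 75.6 FPKM against 47.5, 42.9 and 36.7 FPKM.

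Lignin and oxidative wall enzymes were divided, and their level in WT depended on replicate 1. Of 70 class III peroxidases, 10 (14.3%) lay below WT and 4 (5.71%) above without overlap, beside 7.3% and 8.61% of all models. The mean log2 level of the list was 5.16 in WT replicate 1, against 4.70 and 4.63 in the other 2 WT libraries. Without WT replicate 1 the median of the list was 0.01, where all 6 libraries gave −0.13. Among those below WT, the peroxidase OS05G0134700 had 451, 510 and 423 FPKM in the libraries labelled dgk1 against 673, 892 and 614 FPKM. On the high side, OS03G0368900 had 230, 246 and 271 FPKM against 183, 136 and 188 FPKM.

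Laccases also lay on both sides of WT. Of 13, 3 (23.1%) lay above WT without overlap and 1 (7.69%) below, beside 8.61% and 7.3% of all models. The median of the list was −0.28 and became 0.04 without WT replicate 1. Laccase OS12G0258700 had 13.2, 20.8 and 8.87 FPKM in the libraries labelled dgk1 against 5.80, 5.63 and 5.26 FPKM in WT, while laccase OS01G0842500 had 24.5, 18.4 and 28.7 FPKM against 61.4, 32.9 and 33.4 FPKM. Beside CAD8A, its chromosomal neighbour OS09G0400400, of the same alcohol dehydrogenase family, had 21.6, 20.3 and 26.8 FPKM against 57.8, 35.5 and 43.8 FPKM (log2 fold change −0.95 ± 0.21 SE, limma adjusted p = 0.119). The dirigent protein OS11G0178800, of the proteins that steer coupling of lignin-type monomers, had 160, 122 and 153 FPKM against 298, 210 and 215 FPKM.

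Receptors of the immune system showed many small shifts above WT. NB-ARC receptors, which detect pathogen proteins inside the cell, numbered 106, and 72 had a log2 fold change above 0 (median 0.12). Without overlap, 23 (21.7%) lay above WT and 4 (3.77%) below, beside 8.61% and 7.3% of all models. Numbered models, which make up much of the list, lay higher as a whole: 613 of 5362 (11.4%) were above WT without overlap. No receptor was called. The median stayed between 0.11 and 0.19 over all alternatives, and without WT replicate 1, 22 members lay above and none below at an unadjusted p under 0.05.

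Model 10021, with leucine-rich repeats beside the NB-ARC domain, had 2.46, 2.30 and 2.44 FPKM in the libraries labelled dgk1 against 1.28, 0.955 and 1.16 FPKM in WT (log2 fold change 0.68 ± 0.14 SE, limma adjusted p = 0.0894). Model 8554 had 5.16, 4.89 and 5.02 FPKM against 3.89, 3.27 and 3 FPKM. Among annotated members, OS12G0512400 had 3.78, 2.79 and 3.87 FPKM against 1.91, 2.13 and 1.77 FPKM. The shifts are small and the levels low, and these 3 show groups that stay apart.

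Secreted defence proteins lay on both sides of WT. Of 48 chitinases, germins and pathogenesis-related proteins, 12 (25%) lay above WT without overlap and 3 (6.25%) below, beside 8.61% and 7.3% of all models. Again none was called. Over the whole list, 27 members had a log2 fold change above 0 and 21 below, with a median of 0.07. Chitinases cut the chitin of fungal walls. Chitinase 11 (OS03G0132900) had 8.67, 10.3 and 7.87 FPKM in the libraries labelled dgk1 against 3.38, 3.48 and 2.51 FPKM in WT (log2 fold change 1.27 ± 0.23 SE, limma adjusted p = 0.0533). OsChib3a (OS01G0660200), an acidic class III chitinase, had 70.3, 58.0 and 59.7 FPKM against 38.6, 16.3 and 15.6 FPKM. The barwin-domain protein OS11G0592100, of a wound-induced family, had 198, 208 and 220 FPKM against 154, 109 and 128 FPKM (adjusted p = 0.0587).

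Germin-like proteins, extracellular proteins of the cupin fold, formed a cluster on chromosome 12 in which OS12G0154700, OS12G0154800 and OS12G0154900 all lay above WT on average. OS12G0154700 had 16.5, 17.3 and 20.9 FPKM in the libraries labelled dgk1 against 5.45, 10.4 and 4.31 FPKM in WT (log2 fold change 1.39 ± 0.25 SE, limma adjusted p = 0.0563). OS12G0154900 had 147, 170 and 244 FPKM against 124, 97.6 and 58.5 FPKM. Neighbouring copies of one family such as these may share fragments.

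The family was not uniform. The thaumatin-like protein OS12G0628600 had 14.0, 17.1 and 9.59 FPKM in the libraries labelled dgk1 against 36.9, 34.5 and 19.8 FPKM in WT, and the class III chitinase OS10G0416500 had 154, 229 and 164 FPKM against 261, 275 and 277 FPKM. Both were below WT without overlap, opposite to OsChib3a (OS01G0660200) of the same enzyme class. The list's median was 0.07, inside the middle 50% of all models.

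Calcium signalling genes had small differences. Of 85 calcium sensors and kinases, 14 (16.5%) lay above WT without overlap and 4 (4.71%) below, beside 8.61% and 7.3% of all models. None was called, and all 6 libraries gave a median of 0.09. The median was 0.03 without dgk1 replicate 3 and 0.05 without WT replicate 3. The mean log2 level of the list overlapped between groups, at 4.62, 4.64 and 4.72 in the libraries labelled dgk1 and 4.64, 4.56 and 4.48 in WT. The calcium-dependent kinase CPK13 (OS04G0584600) had 469, 505 and 541 FPKM in the libraries labelled dgk1 against 406, 436 and 335 FPKM in WT. Model 9956, similar to calmodulin-binding proteins, had 12.2, 10.5 and 13.9 FPKM against 6.52, 5.52 and 3.94 FPKM (log2 fold change 1.07 ± 0.20 SE, limma adjusted p = 0.0542). Calcineurin B-like protein 5 (OS01G0598200), a calcium sensor, stood on the other side with 4.98, 6.68 and 7.01 FPKM against 7.85, 10.7 and 10.7 FPKM.

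Among 30 lectin, wall-associated and cysteine-rich receptor kinases the median was 0.16, with 21 above 0, and 0.07 without WT replicate 2. The one called member, model 36997, fell, with 4.45, 5.58 and 5.16 FPKM in the libraries labelled dgk1 against 10.5, 11.2 and 8.86 FPKM in WT (log2 fold change −0.89 ± 0.15 SE, limma adjusted p = 0.0447). Its description names a lectin domain and no kinase domain. Model 35931, a lectin receptor kinase, had 5.27, 4.20 and 4.79 FPKM against 2.56, 1.16 and 1.34 FPKM (log2 fold change 1.13 ± 0.21 SE, limma adjusted p = 0.0555). Its neighbour model 35932 had 1.28, 1.41 and 1.19 FPKM against 0.940, 0.548 and 0.659 FPKM. Leucine-rich repeat kinases, 42 in number, held 1 called riser, model 13790, at 10.3, 9.61 and 9.96 FPKM against 4.19, 4.22 and 3 FPKM. It overlaps model 13789. The same list held 1 called member that fell, model 9297, at 1.03, 1.6 and 0.789 FPKM against 6.74, 5.60 and 5.33 FPKM. Its description names a leucine-rich repeat domain and no kinase domain.

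Transcription factor families differed in direction. Of all models, 6.27% lay above WT at an unadjusted p under 0.05 and 5.25% below it. Of 40 bHLH factors, 7 (17.5%) lay above and none below (median 0.10). Without overlap, 6 (15%) lay above WT and 2 (5%) below, beside 8.61% and 7.3% of all models. Without WT replicate 2 the median was 0.01 and without WT replicate 3 it was 0.02. The mean log2 level of the list overlapped, at 3.62, 3.57 and 3.62 in the libraries labelled dgk1 and 3.67, 3.38 and 3.31 in WT. Model 37804, with the bHLH domain, had 5.70, 7.49 and 6.62 FPKM in the libraries labelled dgk1 against 2.98, 2.85 and 3.35 FPKM in WT (log2 fold change 0.90 ± 0.16 SE, limma adjusted p = 0.0521). Of 29 Dof, GATA and C2H2 factors, 6 (20.7%) lay above and 2 (6.9%) below without overlap, beside 8.61% and 7.3% of all models. The Dof zinc finger factor OS02G0252400 was the called one. The median of 0.08 turned to −0.01 without WT replicate 3.

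WRKY factors, regulators of defence, included model 7949, with 6.15, 4.88 and 4.54 FPKM in libraries labelled dgk1 against 2.61, 2.57 and 1.95 FPKM in WT (log2 fold change 0.87 ± 0.16 SE, limma adjusted p = 0.051). Over all 24 of them the median was 0.07, which turned to −0.04 without WT replicate 3, with 2 members above and 1 below at an unadjusted p under 0.05. NAC factors were even, with 4 above and 4 below of 30. Of 69 MYB-type factors, 3 lay above and 5 below, and model 31587 with a Myb/SANT-like domain was the called one.

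Hormone genes showed few differences beyond LOGL5. Of 63 auxin genes, 8 (12.7%) lay above WT and 1 (1.59%) below without overlap, beside 8.61% and 7.3% of all models. Yet their median was −0.02 and none was called. Model 37643, a cytokinin dehydrogenase that breaks the hormone down, had 65.0, 68.7 and 41.6 FPKM in the libraries labelled dgk1 against 100, 113 and 74.3 FPKM in WT. This enzyme acts opposite to LOGL5, yet it was not called (log2 fold change −0.71 ± 0.24 SE, limma adjusted p = 0.308). Ethylene receptor 2 (OS04G0169100) had 81.3, 82.9 and 77.6 FPKM against 68.4, 57.6 and 56.9 FPKM. The linoleate 9S-lipoxygenase OS03G0699700, which oxidizes linoleic acid, had 88.0, 118 and 91.9 FPKM against 74.5, 59.6 and 60.4 FPKM. It was listed with the jasmonate genes by its description, and a role in that hormone's synthesis was not tested.

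Of 10 fermentation and hemoglobin genes, which are known to respond to low oxygen, 4 (40%) lay above WT without overlap and none below. These shares stand beside 8.61% and 7.3% of all models, and the median of the list was 0.16. Alcohol dehydrogenase 2 (OS11G0210500) had 904, 854 and 979 FPKM in the libraries labelled dgk1 against 700, 614 and 462 FPKM in WT. The oxygen-binding hemoglobin HB1 (OS03G0233900) had 90.3, 120 and 86 FPKM against 79.1, 41.4 and 39.9 FPKM. HB2 (OS03G0226200) had 114, 223 and 151 FPKM against 106, 64.9 and 38.8 FPKM. In all 3 genes WT replicate 1 was the WT library nearest to those labelled dgk1, and none passed the test, with limma adjusted p of 0.308, 0.308 and 0.278.

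**Figure D5:**
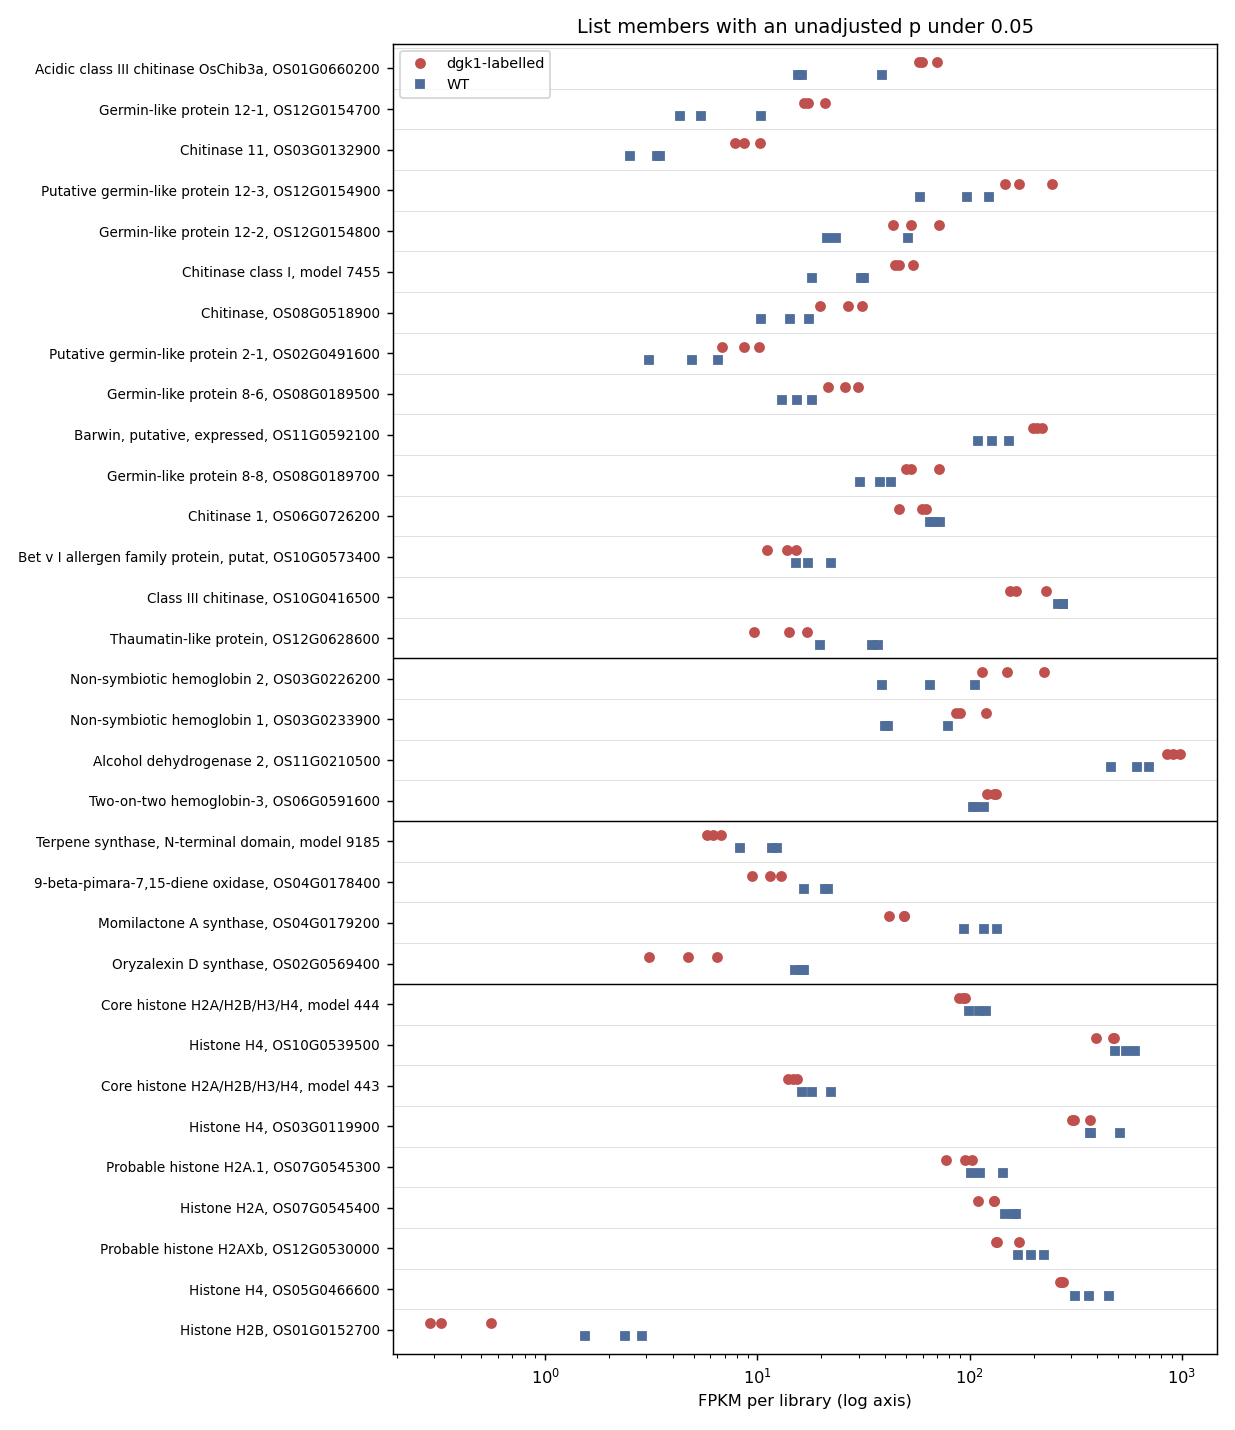
FPKM in each library, on a log axis, of the members of 4 lists with an unadjusted p under 0.05: secreted defence proteins, fermentation and hemoglobin genes, diterpenoid genes and histones, parted by black lines, with circles for the libraries labelled dgk1 above squares for WT. The 4 diterpenoid and 9 histone genes have WT squares mostly to the right, and 11 of the 15 defence genes have the circles to the right.

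Sugar metabolism gave single genes of both signs. Of 31 genes for sucrose, invertase and sugar transport, 5 (16.1%) lay below and 1 (3.23%) above WT at an unadjusted p under 0.05. The shares of all models were 5.25% and 6.27%. Without overlap the sides were more even, with 4 (12.9%) below and 3 (9.68%) above, beside 7.3% and 8.61% of all models. The sucrose transporter SUT1 (OS03G0170900), which loads sucrose across the plasma membrane, had 21.3, 20.4 and 16.7 FPKM in the libraries labelled dgk1 against 26.5, 27.2 and 38.7 FPKM in WT. SWEET4 (OS02G0301100), a bidirectional sugar transporter, had 91.9, 99 and 47 FPKM against 133, 132 and 147 FPKM. In glycolysis, the aldolase OS08G0120600 had 61.8, 47.5 and 49.8 FPKM against 132, 98.2 and 77.1 FPKM, whereas the aldolase OS01G0905800 had 843, 810 and 1006 FPKM against 707, 551 and 552 FPKM. The 2 aldolases thus lay on opposite sides of WT, each without overlap, and the median over 37 glycolysis genes was −0.04.

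Nutrient genes with a call included a purple acid phosphatase, of the enzymes that free phosphate from organic compounds. OS11G0151700 rose, with 13.3, 15.9 and 12.7 FPKM in libraries labelled dgk1 against 4.93, 7.70 and 4.42 FPKM in WT (limma adjusted p = 0.0406). Its call was lost without any library except WT replicate 2 (limma adjusted p of 0.101 to 0.143). A fit of the 6 libraries alone ended it too (0.101). A second purple acid phosphatase, OS01G0800500, had 10.1, 4.43 and 10.5 FPKM against 2.65, 2.10 and 1.09 FPKM (log2 fold change 1.63 ± 0.33 SE, limma adjusted p = 0.0824). SPX2 (OS02G0202200), of the proteins that sense phosphate supply, had 0.967, 0.774 and 0.501 FPKM against 1.51, 2.65 and 2.17 FPKM. Over 29 phosphate genes 2 lay above and 1 below WT without overlap, shares of 6.9% and 3.45% that do not exceed those of all models. At an unadjusted p under 0.05, 3 (10.3%) lay above and 1 (3.45%) below, beside 6.27% and 5.25% of all models. The median of the list was 0.12 and fell as low as −0.04 in the alternatives.

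Iron acquisition genes were chosen for display after their values were seen. Nicotianamine synthases make the precursor of the iron-binding compounds that grass roots secrete. NAS1 (OS03G0307300) had 138, 84.1 and 148 FPKM in the libraries labelled dgk1 against 45.1, 45 and 26.9 FPKM in WT, and its neighbour NAS2 (OS03G0307200) had 185, 125 and 192 FPKM against 69.6, 56.1 and 49.3 FPKM. At both genes the groups were far apart, with log2 fold changes of 1.63 and 1.49.

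Neither NAS gene was called in the fit of 9 libraries (SE 0.89 for NAS1 and 0.84 for NAS2), which included OE2 replicate 2 at 599 FPKM for NAS1 and 736 FPKM for NAS2 beside 2 other OE2 libraries at 83.2 FPKM or less. With the 6 libraries alone the SE was 0.289 for NAS1 (OS03G0307300) and 0.208 for NAS2 (OS03G0307200), and the limma adjusted p was 0.105 and 0.0471. YSL15 (OS02G0650300), which imports the iron complex, had 3.72, 2.56 and 5.33 FPKM in the libraries labelled dgk1 against 1.64, 1.05 and 0.485 FPKM in WT. NAS3 (OS07G0689600) lay on the other side with 5.31, 2.82 and 3.36 FPKM against 6.23, 4.95 and 8.79 FPKM, its groups overlapping.

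The iron transporter IRT1 (OS03G0667500) had 7.59, 7.74 and 7.40 FPKM in the libraries labelled dgk1 against 5.23, 6.93 and 7.20 FPKM in WT. Metallothionein 4C (OS12G0571100), of a family that binds zinc and copper, had 436, 442 and 453 FPKM against 907, 1061 and 744 FPKM. Its libraries labelled dgk1 were close together and well under WT (log2 fold change −1.01 ± 0.24 SE, limma adjusted p = 0.146). The whole list of 40 metal genes had a median of −0.06.

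Housekeeping families had medians near 0, but in several more members lay below 0 than the 51.7% of all models. These were 87 of 117 cytosolic ribosomal proteins, 32 of 46 translation factors, 29 of 41 proteasome genes and 21 of 29 tricarboxylic acid cycle genes. Transfer RNA ligases (7 of 16) and vesicle traffic genes (34 of 64) stood nearer to that share. The proteasome and tricarboxylic acid cycle medians, both −0.05, kept their sign in all alternatives. Of 117 cytosolic ribosomal proteins none was called, 3 lay below WT at an unadjusted p under 0.05 and the median was −0.06, turning to 0.04 without WT replicate 1. Proteasome and ubiquitin conjugation genes (41), transfer RNA ligases (16) and enzymes of the tricarboxylic acid cycle (29) had no member at an unadjusted p under 0.05 by limma and none called. Vesicle traffic and small GTPases had 1 of 64, translation factors 1 of 46, and neither had a called member.

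Models derived from transposons supplied 5 of the 17 list members called higher. Of 108 tested, 16 (14.8%) lay above WT without overlap and 6 (5.56%) below, beside 8.61% and 7.3% of all models. Model 32754, with the gag domain of a retrotransposon, had 33.9, 40.5 and 32.4 FPKM in the libraries labelled dgk1, whereas each WT library listed it at 0. Model 33318, with a reverse transcriptase domain, had 5.46, 5.11 and 4.91 FPKM in the libraries labelled dgk1 against 0.0373, 0.492 and 0.0117 FPKM in WT, and model 33398, with an integrase domain, had 5.76, 5.85 and 3 FPKM against 0, 0.0235 and 0 FPKM. On the other side, model 20202, a reverse transcriptase, had 1.01, 2.33 and 1.76 FPKM against 5.02, 6.84 and 7.66 FPKM (limma adjusted p = 0.0587).

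Most called models, 131 of 166, had no described function. The most abundant included OS11G0672300, with 277, 289 and 289 FPKM in libraries labelled dgk1 against 180, 179 and 204 FPKM in WT (log2 fold change 0.60, limma adjusted p = 0.0499). Its call was lost without any 1 of the 6 libraries (limma adjusted p of 0.07 to 0.179) and in a fit of the 6 alone (0.0862). Model 22730 on chromosome 4 (3410721 to 3412393, minus strand) had 218, 263 and 205 FPKM against 133, 107 and 107 FPKM, and kept its call in 14 of 15 alternatives. The widest difference was that of OS04G0115700, which had 123, 163 and 63.8 FPKM in the libraries labelled dgk1 and was listed at 0 in each WT library (adjusted p = 7.75e-05). OS02G0682300 had 66.8, 89.7 and 86.2 FPKM against 43.0, 46.6 and 39.2 FPKM (adjusted p = 0.0384). Its call was lost without any library except dgk1 replicate 1 (limma adjusted p of 0.0856 to 0.156) and with the 6 libraries alone (0.0815).

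Called models lay unevenly along the genome. The share of tested models called ran between 0.412% on chromosome 1 and 1.63% on chromosome 4. Of the 166, 42 had another called model within 100 kb, in 15 groups. On chromosome 10, 2517139 to 2667466, 6 of 14 tested models were called, 5 higher and 1 lower, the lower one being the kinase model 5834. On chromosome 11, 27155346 to 27363281, 5 of 18 were called and all 5 rose. On chromosome 4, 244295 to 251388, all 3 tested models were called, 1 higher and 2 lower. There OS04G0103601 had 30.7, 36.7 and 43.1 FPKM in the libraries labelled dgk1 against 1.96, 1.81 and 1.53 FPKM in WT, while its neighbour OS04G0103800 was listed at 0 in each library labelled dgk1 and had 28.5, 36.0 and 34.6 FPKM in WT. The third of them, the kinase OS04G0103700, fell as given above. The genotypes at these places were not analysed here.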

How the data were processed

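Root RNA of rice was sequenced on an Illumina instrument after Trizol extraction and DNase I treatment, per the labels' protocols. The authors deposited 1 table per library of FPKM (fragments scaled by model length and library depth) with the length and description of each model. The submitters' processing notes name the tools CASAVA 1.8 and HISAT2. The sources used here do not give how fragments were counted, with or without strand, or which genome build and annotation were used. Coordinates are those of the deposited files.

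Groups were taken from the labels. Multiplied by length, 100% of FPKM values were whole multiples (within 0.01) of the library's smallest step. Whole fragments recovered this way gave the depth and were tested in 1 alternative by limma-voom. The files hold FPKM in place of counts, so the main test uses FPKM. Models that reached 1 FPKM in 3 or more of the 6 libraries were tested with limma 3.58.1 (R 4.3.3, statmod 1.5.0), with trend and robust variance on log2(FPKM + 1). All 9 libraries entered 1 fit with group as the term, tests were two-sided, and Benjamini-Hochberg adjusted p under 0.05 over all tested models was called. Fold changes on this scale are smaller than the true ratio where levels are low. Levels are compared between libraries for 1 model at a time, and list levels are means of log2(FPKM + 1). The script was tested on simulated data.

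No 2 replicates matched within sampling noise (chi-square per degree of freedom between 10.5 and 23.6). P-values measure only the spread between these libraries. Gene lists were matched on the descriptions and are described by counts beside those of all models, with no test. The comparison and the lists were chosen with earlier results of these data known, and list patterns were corrected after reading matched descriptions. Genes named are diacylglycerol kinases, the 12 largest called rises and falls with a described function and at least 5 FPKM in the higher group, up to 6 called members of each list, the 4 most abundant members of each list at an unadjusted p under 0.05 without overlap, and the 10 most abundant called models under 2-fold. Other genes named were chosen after their values were seen, among them KSL7, NAS1, NAS2, YSL15, IRT1 and low or overlapping list members. Alternatives changed the filter, the pseudocount (0.1), the scaling, the libraries fitted, the variance and the replicate term.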

Additional observations from a re-analysis of the deposited data

How the results depend on the processing

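The direction of every named gene stayed the same in each alternative that gave it a value, and the count of called models moved. Against 166 called (129 higher, 37 lower), a filter of at least 5 FPKM left 78 (59 higher, 19 lower) among 11186 tested models, all 78 also called before. Limma-voom on recovered fragments called 252 (188 higher, 64 lower), of which 148 were shared. Within 1.5 times of 166 were 115 with the 6 libraries alone (93 shared), 139 with no filter (120 shared), 122 with a pseudocount of 0.1 (115 shared), 182 with quantile normalization (161 shared), 178 with libraries rescaled to the same sum (157 shared) and 169 without robust variance (166 shared). Leaving out 1 library gave between 89 and 152 called models, 76 to 124 higher and 13 to 28 lower. The lowest total, 89, came without dgk1 replicate 3 (79 shared) and the highest, 152, without WT replicate 1 (112 shared). Totals were 97 without WT replicate 2, 101 without WT replicate 3, 108 without dgk1 replicate 1 and 93 without dgk1 replicate 2. With the replicate number as a block 82 were called (72 higher, 10 lower), 80 of them shared. Correlations of deviations were 0.03, 0.07 and −0.09 for same-numbered libraries, and lay between −0.18 and 0.15 for differently numbered ones. These few libraries cannot show whether same-numbered samples were grown or prepared together. Of 193 named genes tested, 33 were called, and 15 to 22 of these 33 lost the call without 1 library. Of 71 gene lists, the median of 34, the histone, diterpenoid and NB-ARC lists among them, kept its sign in all alternatives. The median of the other 37 did not, among them peroxidases, laccases, expansins, cellulose synthases, ribosomal proteins, glycolysis, auxin, glutathione S-transferases, phosphate nutrition, transposon-derived models and the WRKY, NAC, MYB and Dof, GATA and C2H2 factors.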
